A study of Homo sapiens with 10 samples.

Results

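The glial cell line-derived neurotrophic factor (GDNF) family of receptors and ligands was examined in BEAS-2B human bronchial epithelial cells that had been transformed by chromate. The 8 genes chosen were the coreceptors GFRA1, GFRA2 and GFRA3, the receptor tyrosine kinase RET, the alternative receptor NCAM1, and the ligands GDNF, NRTN (neurturin) and ARTN (artemin). Rows (transcript clusters) were chosen by the gene symbols in the annotation of the array and, for a gene with several, by the highest mean intensity over the 10 arrays. Each member that was found had 1 row, so no measured value entered the choice of row, although the family was taken up with results of these arrays known. The array table has 28869 rows, and those with 1 symbol name 18377 genes. Of all rows, 7 belonged to members. GDNF itself was not analysed here. The row of RET also carries the symbol of KIF5B, a kinesin heavy chain gene. It lists 20 transcript accessions, of which 2 are RefSeq transcripts of RET and 0 are of KIF5B, and its values are given below as those of the RET/KIF5B row.

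There were 10 arrays (Affymetrix Human Gene 1.0 ST), 1 for each of 9 cell lines and 1 for the parental BEAS-2B cells. The 3 Cr_small and 3 Cr_large lines were each expanded from a small or a large soft agar colony, grown for 3 weeks, of cells kept in 0.5 µM potassium chromate for 30 days. The 3 control lines came from colonies that formed in soft agar without chromate, while the parental cells were neither exposed nor grown in agar. The treatment text of the labels names chromate for every array, and the titles and cell types, read with the paper's methods, therefore decided the groups. Every line descends from 1 cell, so a difference between lines can be one between clones, and no repeat of the exposure is described. Tests measure the spread between lines, not between exposures. The parental cells have 1 array, and all differences from it are given without a test.

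GDNF family ligands act through a receptor in 2 parts. A GFRα coreceptor, anchored to the cell surface by a lipid, binds the ligand and brings it to RET, which then phosphorylates itself and recruits adaptor proteins. GFRα1 prefers GDNF, GFRα2 prefers neurturin and GFRα3 prefers artemin, and GFRα1 can also signal with NCAM1 where RET is absent. The family is best known from the developing kidney and enteric nervous system and from the survival of neurons.

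Of the 7 member rows, GFRA1 was higher in the Cr(VI) transformed lines than in the control lines, and the other 6 did not pass the test. The parental array had GFRA1 at 9.36, above the Cr mean of 8.85 and the control mean of 6.74. Levels below are log2 intensities, over which all rows had a median of 5.86 and a 10th percentile of 4.60. A gene is said to have risen or fallen at an adjusted p under 0.05 (limma, Benjamini-Hochberg over all 28869 rows). Unless a group is named, the contrast is the average of the Cr_small mean and the Cr_large mean minus the control mean, referred to as the Cr lines against control. Of all rows, 11.0% passed in this contrast, 5.33% higher and 5.72% lower. The median log2 fold change was 0.17 over the 7 member rows and 0.01 over all rows. At an unadjusted limma p under 0.05, 3 of the 7 member rows and 24.4% of all rows differed.

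**Figure D1:**
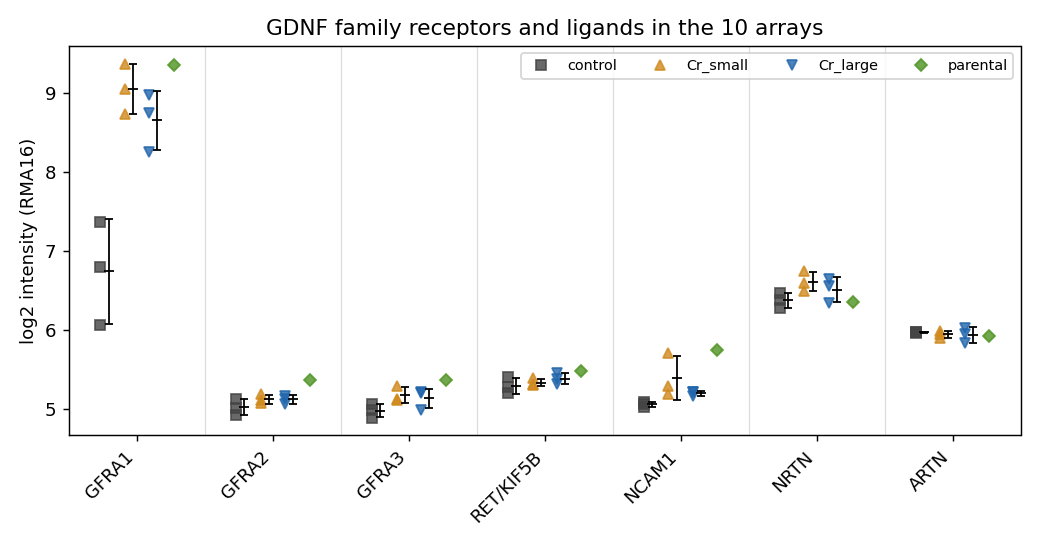
Log2 intensity (y axis) of each member (x axis) in the 3 control, 3 Cr_small and 3 Cr_large lines and the parental array, as points, and black bars beside them for the group means ± SD. The GFRA1 values of the control lines lie at 6.06 to 7.37 and those of the 6 Cr lines at 8.25 to 9.37, while the other members stay within narrow ranges. Levels of different genes come from different probes and are not to be compared.

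GFRA1, the coreceptor for GDNF, was at 7.37, 6.79 and 6.06 in control lines 1, 2 and 3. It was at 9.37, 8.73 and 9.05 in the Cr_small lines and at 8.25, 8.74 and 8.97 in the Cr_large lines. All 6 Cr lines were above all 3 control lines, and the control lines differed more among themselves (SD 0.66, n = 3) than the Cr lines (SD 0.38, n = 6). In RNA of whole cultures, fewer cells with a transcript and less of it per cell cannot be told apart. The GFRA1 mean rose from 6.74 in the control lines to 8.85 in the Cr lines, a log2 fold change of 2.11 (standard error 0.29), or 4.32-fold, with an adjusted p of 0.00371 from limma. Over all alternative settings its log2 fold change stayed between 1.77 and 2.43 and its adjusted p between 0.000976 and 0.0151. GFRA1 is on the list of changed genes that the study made from the same arrays, so its rise here is not independent evidence.

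GFRA1 rose in each Cr group taken alone, by 4.96-fold in the Cr_small lines (adjusted p = 0.00658, limma) and by 3.77-fold in the Cr_large lines (adjusted p = 0.0145, limma). Both comparisons use the same control lines. It was the only one of the 7 member rows to pass in either, where 3.79% of all rows were higher for Cr_small and 3.33% for Cr_large. Without Cr_large line 2 the call for Cr_large was lost (adjusted p = 0.0507, limma), and both calls were lost when the methods' t-test was used with Benjamini-Hochberg adjustment (adjusted p = 0.102 for Cr_small and 0.171 for Cr_large). The Cr_large lines were lower than the Cr_small lines by a log2 difference of -0.40 (standard error 0.34), which did not pass. No member row and 0.00% of all rows passed between Cr_large and Cr_small, although 1266 of all rows and none of the members had an unadjusted limma p under 0.05.

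The parental array had a GFRA1 level of 9.36, close to the highest Cr line. The control lines lay under it by a mean log2 difference of -2.62, a 6.13-fold lower level, and 0.533% of all rows were at least 2-fold lower in the control lines than in the parental array. The Cr_small mean differed from the parental array by -0.30 and the Cr_large mean by -0.70. The low samples of GFRA1 were thus the 3 control lines, and the 6 Cr lines and the parental cells were high. Among the 9 lines, 8 were below the parental array and Cr_small line 1 was above it.

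GFRA1 lies at chr10:116056925-116274705 on the minus strand in RefSeq on GRCh38.p14. RefSeq gives several transcript starts for it, and 250 bases before each of 4 starts were searched on both strands for the motifs of 4 groups of transcription factors. These were AP-2 (GCCNNNGGC, found in 19.8% of 35116 windows of all genes, each of 250 bases), EGR1 (GCGTGGGCG, 0.720%), CRE (TGACGTCA, 1.65%) and AP-1 (TGANTCA, 6.57%). The window at chr10:116272476-116272725 held 1 match to AP-2, and no other match was found in the 4 windows. The shares are per window, so a match somewhere in 4 windows is more likely than they give. GC bases made up 64.4% of the matching window, against a median of 58% over all windows. That window is shown because the AP-2 gene TFAP2C, described below, was among the listed factors that rose. It is written from 5′ to 3′ along the gene, with the AP-2 match in capitals.
GFRA1 promoter window: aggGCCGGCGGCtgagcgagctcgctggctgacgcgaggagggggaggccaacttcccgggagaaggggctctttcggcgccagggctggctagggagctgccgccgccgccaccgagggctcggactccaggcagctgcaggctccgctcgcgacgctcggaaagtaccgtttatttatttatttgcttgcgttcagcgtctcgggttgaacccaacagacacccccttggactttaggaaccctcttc
A match of these letters is a description of the sequence only, and no binding was measured here. The parental array had GFRA1 at 9.36, above 5 of the 6 Cr lines and above all 3 control lines. It had TFAP2C at 6.27, under all 6 Cr lines and above all 3 control lines. A link between the 2 genes was not tested.

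GFRA2 and GFRA3, the coreceptors for neurturin and artemin, were dim on these arrays and did not pass the test. GFRA2 was at 5.01, 4.93 and 5.13 in the control lines, at 5.12, 5.07 and 5.18 in the Cr_small lines, at 5.07, 5.13 and 5.17 in the Cr_large lines and at 5.37 on the parental array. The groups of lines overlapped, with a log2 fold change of 0.10 (standard error 0.05, adjusted p = 0.306 from limma). GFRA3 was at 4.99, 4.89 and 5.07 in the control lines, at 5.29, 5.11 and 5.12 in the Cr_small lines, at 5.21, 4.99 and 5.20 in the Cr_large lines and at 5.37 on the parental array. Its Cr lines were above all control lines in 5 of 6 cases, with a log2 fold change of 0.17 and a standard error of 0.07 (limma adjusted p = 0.172). For dim rows the constant that RMA16 adds to intensities shrinks the fold.

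The RET/KIF5B row was at 5.28, 5.20 and 5.40 in the control lines, at 5.32, 5.39 and 5.30 in the Cr_small lines and at 5.38, 5.45 and 5.31 in the Cr_large lines. The groups overlapped, with a log2 fold change of 0.06 and a standard error of 0.05 (limma adjusted p = 0.547). The parental array was at 5.48. This row stood at the 38.3rd percentile of all rows by mean level, and the array cannot say whether RET, the kinase that the coreceptors need for most of their signaling, was expressed.

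NCAM1, a neural cell adhesion molecule that can serve as a receptor with GFRα1, was at 5.03, 5.06 and 5.08 in the control lines. It was at 5.71, 5.28 and 5.19 in the Cr_small lines, at 5.16, 5.21 and 5.21 in the Cr_large lines and at 5.75 on the parental array. All 6 Cr lines were above all control lines, but the log2 fold change of 0.24 (standard error 0.10) did not pass (adjusted p = 0.203 from limma). Cr_small line 1 stood apart from the other Cr lines, at 5.71 against 5.16 to 5.28. GFRA1 and NCAM1 were the 2 members of 7 whose Cr lines did not overlap the control lines on the higher side, and 8.85% of all rows had this arrangement.

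The ligand genes did not pass the test. NRTN was at 6.38, 6.47 and 6.28 in the control lines, at 6.50, 6.75 and 6.59 in the Cr_small lines, at 6.34, 6.55 and 6.64 in the Cr_large lines and at 6.36 on the parental array. Its groups overlapped, with a log2 fold change of 0.18 and a standard error of 0.08 (limma adjusted p = 0.228). ARTN was at 5.98, 5.96 and 5.97 in the control lines, at 5.90, 5.99 and 5.95 in the Cr_small lines, at 5.84, 6.03 and 5.94 in the Cr_large lines and at 5.92 on the parental array. It had the smallest log2 fold change of the 7 member rows, -0.03 (standard error 0.05, adjusted p = 0.791 from limma).

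The parental array was above all 3 control lines in 5 of the 7 member rows (29.4% of all rows) and above all 9 lines in 4 of them (11.9% of all rows). These 4 were GFRA2, GFRA3, the RET/KIF5B row and NCAM1, with the control mean minus the parental value at -0.34, -0.39, -0.18 and -0.70 on the log2 scale. NRTN and ARTN differed from it by 0.02 and 0.05. GFRA1 differed by at least 2-fold, and NCAM1 did so only with 16 subtracted from the intensities before log2 (-1.13, 2.19-fold). With 1 parental array no error can be given.

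The more distant members of the same families did not pass either. PSPN (persephin, the fourth GDNF family ligand) had a log2 fold change of 0.00, GFRA4 (its coreceptor) of 0.09, GFRAL (the receptor for GDF15) of -0.02 and GDF15, a stress-induced ligand, of 0.17. Their adjusted p-values were 0.992, 0.570, 0.775 and 0.404 (limma), and 0 of the 4 had an unadjusted p under 0.05. GFRAL had a mean of 4.60, at the 10th percentile of all rows.

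**Figure D2:**
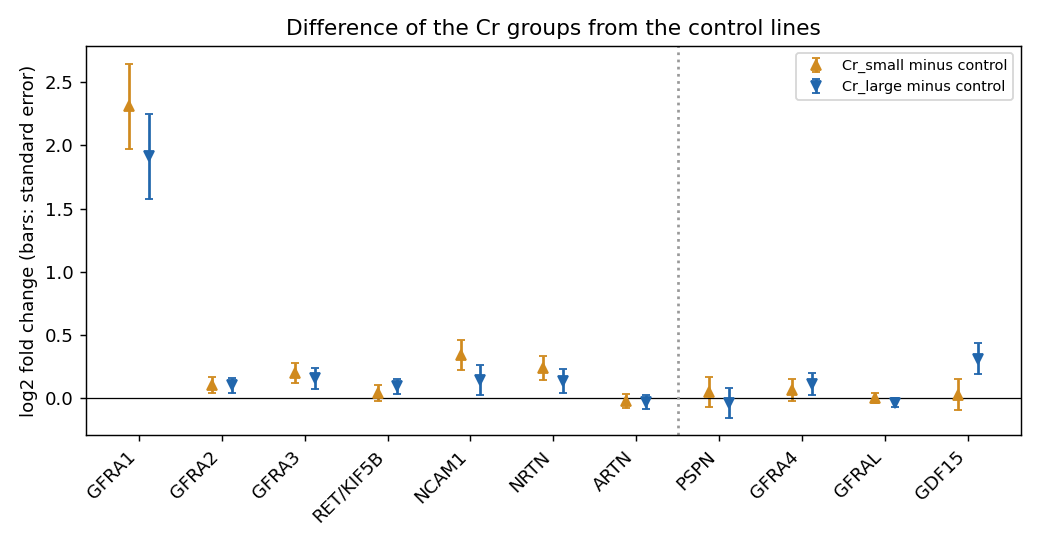
Log2 fold change (y axis) of the Cr_small and Cr_large groups from the control lines for the 7 member rows and, right of the dotted line, 4 further members of the families (x axis). Bars are standard errors from limma. GFRA1 stands at 2.31 for Cr_small and 1.91 for Cr_large, and the other genes lie near 0.

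The rest of the pathway was followed in lists of genes that act around the receptors. These lists were drawn up with earlier results on these arrays known, and they are described by counts beside the share of all named genes. Of the 18377 named genes, 14.6% passed the test in the Cr lines against control. Of 81 genes measured over 7 lists, the 4 genes above included, 10 rose and 10 fell. The count was 12 without control line 1 and 9 without control line 3, while all 9 fits that left out 1 line gave 9 to 23.

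Among 7 other binding and processing partners of the ligands, 0 rose and 2 fell, with a median log2 fold change of 0.01 against 0.03 over all named genes. SDC3 (syndecan-3, a heparan sulfate proteoglycan that binds GDNF) was at 7.99, 7.81 and 7.94 in the control lines and between 6.86 and 7.64 in the Cr lines, and fell by 0.61 on the log2 scale (adjusted p = 0.0229, limma). FURIN, a protease that cleaves precursor proteins, was at 7.65, 7.37 and 7.45 in the control lines and between 6.92 and 7.14 in the Cr lines, and fell by 0.47 (adjusted p = 0.00508, limma). In both genes all Cr lines were below all control lines, which adds no support, as both were named for passing the test on the same arrays. The parental array was at 7.95 for SDC3, near the control lines, and at 7.07 for FURIN, within the Cr lines. The adjusted p of SDC3 was 0.0930 without control line 1 and 0.0890 without control line 3. With the methods' t-test and Benjamini-Hochberg adjustment it was 0.0787. By group, SDC3 passed in the Cr_small lines (adjusted p = 0.0220) but not in the Cr_large lines (0.125, both limma).

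Among 26 measured adaptors and enzymes recruited by RET, 3 rose and 5 fell, and their median log2 fold change was 0.06. GRB10, an adaptor that binds receptor tyrosine kinases, fell by 1.01 on the log2 scale (adjusted p = 0.0134), PDLIM7, a LIM domain protein that binds RET, by 0.67 (adjusted p = 0.0136), and SHC1, the adaptor leading to RAS, by 0.52 (adjusted p = 0.0227, all limma). GAB1, a docking protein for PI3 kinase, fell by 0.67 (adjusted p = 0.00446, limma), while a dimmer row of GAB1 did not pass (log2 fold change 0.10, adjusted p = 0.511, limma). All Cr lines were below all control lines in these 4 genes. This adds no support, as the genes were named for passing the test on the same arrays. For example, GRB10 was at 8.37, 7.94 and 8.15 in the control lines and at 7.14, 7.34, 6.96, 6.86, 6.91 and 7.65 in the Cr lines, with the parental array at 7.70. The others, named after their values were seen, were DOK1, which fell (-0.29), and GRB7 (0.48), IRS2 (0.24) and CBL (0.51), which rose. CBL is the ubiquitin ligase that marks RET and other receptors for degradation. The adjusted p of GRB10 was 0.0630 without control line 1 and 0.0571 without control line 3. That of SHC1 was 0.0937 and 0.0921 in the same fits, and that of PDLIM7 0.0658 without control line 3. With the methods' t-test and Benjamini-Hochberg adjustment, SHC1 had 0.133. By group, SHC1 passed in the Cr_small lines (adjusted p = 0.0146) but not in the Cr_large lines (0.210, both limma). DOK1 passed in neither group alone (0.0581 for Cr_small and 0.0683 for Cr_large, limma).

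Among 9 partners of NCAM1 and enzymes that add polysialic acid to it, 2 rose and 1 fell, with a median log2 fold change of 0.01. L1CAM, an adhesion molecule of the same superfamily as NCAM1, was at 7.29, 6.99 and 7.34 in the control lines and at 9.49, 9.20, 9.38, 9.43, 9.57 and 9.36 in the Cr lines. The 2 groups were far apart, which adds no support, as L1CAM was named for passing the test on the same arrays. It rose by 2.20 on the log2 scale (standard error 0.10), 4.59-fold, with an adjusted p of 2.19e-05 (limma). The paper also reports L1CAM as increased on these arrays, so its rise here is not independent evidence. The parental array was at 8.99, between the groups. FYN, a kinase that NCAM1 activates, rose by 0.34 (adjusted p = 0.0329), and PTK2, focal adhesion kinase, fell by 0.36 (adjusted p = 0.0245, both limma). By group, PTK2 passed in the Cr_large lines (adjusted p = 0.0476) but not in the Cr_small lines (0.0596, both limma). FYN passed in neither group alone (0.0897 for Cr_small and 0.0526 for Cr_large, limma), and it lost its call in 10 of 19 alternative settings. Its adjusted p was 0.112 without control line 3 and 0.101 without control line 2, and 0.0609, 0.0563, 0.0671 and 0.0576 without Cr_large line 2 and Cr_small lines 1, 2 and 3. That of PTK2 was 0.0943 without control line 1 and 0.105 without control line 3.

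Among 14 genes known to respond to RET signaling, 14.3% passed, where 14.6% of all named genes did. Of the 14 genes, 2 rose and 0 fell, with a median log2 fold change of -0.01. These were ETV4 and ETV5, ETS family transcription factors induced by GDNF in the ureteric bud. ETV4 was at 6.35, 6.33 and 6.06 in the control lines, at 7.76, 7.13 and 7.09 in the Cr_small lines, at 7.11, 7.38 and 6.72 in the Cr_large lines and at 5.75 on the parental array. ETV5 was at 7.58, 7.22 and 7.20 in the control lines, at 8.78, 8.11 and 7.77 in the Cr_small lines, at 8.72, 8.46 and 8.29 in the Cr_large lines and at 6.31 on the parental array. For both genes the Cr lines were highest, the control lines lower and the parental array lowest, with no overlap. The gap between Cr and control lines adds no support, as both genes were named for passing the test on the same arrays. ETV4 rose by 0.95 on the log2 scale (adjusted p = 0.0164) and ETV5 by 1.02 (adjusted p = 0.0205, both limma). By group, ETV4 passed in the Cr_small lines (adjusted p = 0.0226) but not in the Cr_large lines (0.0628), and ETV5 passed in the Cr_large lines (0.0299) but not in the Cr_small lines (0.0702, all limma). EGR1, an immediate early transcription factor, named after its values were seen, was lower in the Cr_small lines (log2 fold change -0.66, adjusted p = 0.0471, limma) and did not pass in the Cr_large lines (-0.07, adjusted p = 0.879, limma). None of ETV4, ETV5 and EGR1 passed between Cr_large and Cr_small. The adjusted p of ETV4 was 0.0523 without control line 1 and 0.0771 without control line 3. That of ETV5 was 0.0703 without control line 2 and 0.0885 without control line 3. With the methods' t-test and Benjamini-Hochberg adjustment, ETV5 had 0.0507.

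The other 12 genes of that list did not pass in the Cr lines against control. SPRY4, which inhibits receptor tyrosine kinase signaling, had means of 7.28 in the control lines and 7.21 in the Cr lines, against 5.56 in the parental cells. DUSP6, a phosphatase for ERK, had means of 6.63 and 6.63, against 5.34. SPRY4 and DUSP6 were named after their values were seen. With ETV4 and ETV5 they were the 4 genes of 14, or 28.6%, whose parental array was below all 9 lines, and 13.9% of all named genes had this arrangement. This was the reverse of GFRA1, where the parental array was among the high samples, and its cause was not tested.

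**Figure D3:**
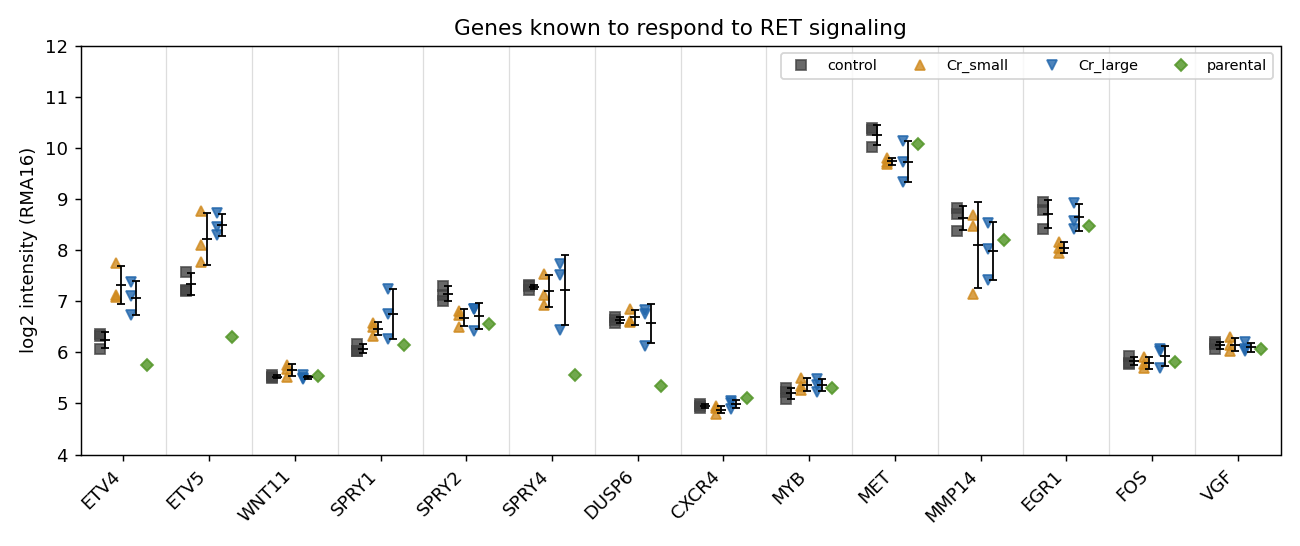
Log2 intensity (y axis) of 14 genes known to respond to RET signaling (x axis) in the control, Cr_small and Cr_large lines and the parental array. Black bars are group means ± SD. ETV4 and ETV5 are highest in the Cr lines, and the parental array lies below all lines for ETV4, ETV5, SPRY4 and DUSP6.

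Among 16 transcription factors known to act upstream of GDNF or RET, 2 rose and 2 fell, with a median log2 fold change of 0.05. TFAP2C (AP-2γ), which regulates RET in breast cancer cells, was at 5.05, 5.10 and 5.33 in the control lines, at 7.22, 7.36 and 7.91 in the Cr_small lines, at 7.98, 7.16 and 6.95 in the Cr_large lines and at 6.27 on the parental array. It rose by 2.27 on the log2 scale (standard error 0.24), 4.84-fold, with an adjusted p of 0.00127 (limma). The paper lists TFAP2C among its changed genes from the same arrays, so its rise here is not independent evidence. EYA1, a coactivator needed for Gdnf expression in the kidney mesenchyme, was at 6.79, 7.25 and 7.10 in the control lines, between 4.99 and 5.26 in the Cr lines and at 7.13 on the parental array. It fell by 1.89 on the log2 scale (standard error 0.10, adjusted p = 5.76e-05, limma), and its parental array lay among the control lines. FOXC2, a forkhead factor, fell by 0.50 (adjusted p = 0.00341, limma). SIX4, a homeobox factor, rose by 0.49 (adjusted p = 0.0348, limma), but its adjusted p was 0.120, 0.105 and 0.0837 without control lines 1, 2 and 3. It was 0.0640, 0.0656, 0.0684 and 0.0667 without Cr_large lines 1 and 2 and Cr_small lines 1 and 3. With the methods' t-test and Benjamini-Hochberg adjustment it was 0.0619. SIX4 passed in neither group alone (0.0557 for Cr_small and 0.0946 for Cr_large, limma).

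Of 5 neurotrophins and neurotrophin receptors measured, BDNF rose and the other 4 did not pass, with a median log2 fold change of 0.06. BDNF, a ligand that shares neuronal targets with GDNF, was at 7.12, 6.85 and 7.10 in the control lines, at 7.62, 8.11 and 8.16 in the Cr_small lines, at 7.79, 7.52 and 7.26 in the Cr_large lines and at 7.28 on the parental array. The log2 fold change was 0.72 (adjusted p = 0.0223, limma). All Cr lines were above all control lines, which adds no support, as BDNF was named for passing the test on the same arrays. The adjusted p of BDNF was 0.0628, 0.0796 and 0.0693 without control lines 1, 2 and 3. With the methods' t-test and Benjamini-Hochberg adjustment it was 0.0994. By group, BDNF passed in the Cr_small lines (adjusted p = 0.0181) but not in the Cr_large lines (0.154, both limma).

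The genes most like GFRA1 over the 10 arrays were sought among 2261 rows with 1 symbol and a range of at least 1 in log2 intensity. They were RNF144B, a ubiquitin ligase, with a Pearson r of 0.950, ENPP4, a membrane ectoenzyme, with 0.918, and SLC46A1, the folate transporter, with 0.913, and 7 rows were over 0.9. These r values are a description over 10 arrays that share the control and Cr groups. Within the 6 Cr lines alone r was -0.16, 0.38 and 0.84. RNF144B rose by 1.27, ENPP4 by 0.85 and SLC46A1 by 1.00 on the log2 scale. The 3 parental values were 8.59, 6.95 and 6.80, against control means of 6.91, 6.07 and 6.17. These rises and parental values add no support, as the genes were picked for their likeness to GFRA1 on the same arrays. The paper also reports RNF144B as increased on these arrays. No other member had a range of 1 or more.

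Neighbouring genes were set beside each member, 20 measured genes on each side with a mean log2 intensity over 7. Of all named genes 14.6% passed in either direction. That share includes dim genes, and none was taken over genes above this level. The 40 neighbours of GFRA1, from PDCD11 to HTRA1 on chromosome 10, centred on a log2 fold change of -0.16 (median, with quartiles at -0.32 and -0.00), and 0 of them rose and 5 fell. The highest of them was at 0.17, far under GFRA1. The nearest, TRUB1 and SHTN1, had log2 fold changes of -0.03 and -0.21 that did not pass (adjusted p = 0.935 and 0.502, limma). Around NCAM1, from ALKBH8 to PHLDB1 on chromosome 11, 23 of 40 neighbours rose and 1 fell, with a median of 0.35. NCAM1 itself, at 0.24, lay within their quartiles of 0.16 and 0.52, and the nearest gene after it, ZW10, rose by 0.58 (adjusted p = 0.000162, limma). Around GFRA2, 1 rose and 18 fell, with a median of -0.23. The medians around GFRA3, RET, NRTN and ARTN lay between -0.15 and 0.16. Of the 40 neighbours of each, 2, 3, 6 and 7 rose and 4, 3, 1 and 0 fell. Copy number was not measured, and the part of such shifts in the values of the members was not tested.

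**Figure D4:**
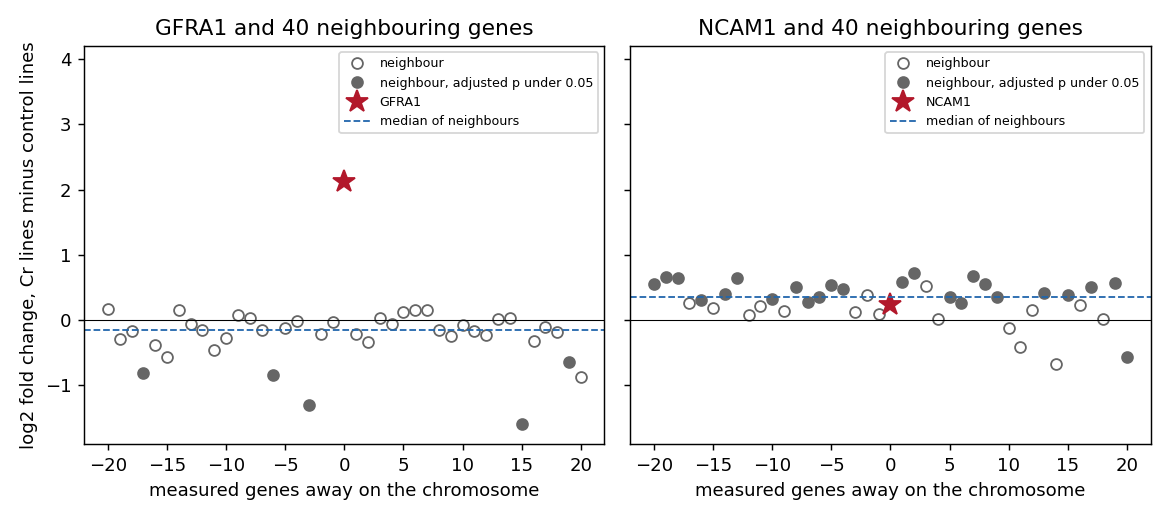
Log2 fold change of the Cr lines from the control lines (y axis) of GFRA1 (left) and NCAM1 (right) and the 20 measured genes on each side, in chromosome order (x axis, number of genes away). Filled circles passed the test, and the dashed line is the median of the neighbours, -0.16 and 0.35. GFRA1 stands above all its neighbours, while NCAM1, which did not pass the test, lies among its own.

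Markers of the cell types that use this family were read beside these results. Of all named genes, 14.6% passed in the Cr lines against control. At an unadjusted limma p under 0.05, 24.4% of all rows differed. In lists this short, a count of 0 does not show that a cell type was unchanged. Of 9 neural crest, neuronal and Schwann cell markers measured, 0 rose and 0 fell (1 at an unadjusted limma p under 0.05), and their mean levels lay between 4.73 and 6.11. Their summed linear intensity was 391 to 412 in the control lines, 408 to 431 in the Cr lines and 404 in the parental cells. Of 8 epithelial markers, the keratins KRT7, KRT8 and KRT18 rose, by 0.32, 0.75 and 0.82 on the log2 scale, and the summed intensity was 7691 to 9575 in the control lines, 11336 to 15641 in the Cr lines and 9553 in the parental cells. Of 9 mesenchymal markers 0 rose and 0 fell, also at an unadjusted limma p under 0.05. Their summed intensity was 8263 to 13900 in the control lines, 9160 to 11346 in the Cr lines and 8612 in the parental cells. The other 5 epithelial markers did not pass: KRT5, KRT14, EPCAM and CDH1 had log2 fold changes of -0.01, 0.09, 0.22 and -0.00, and KRT19 of 1.77 (adjusted p = 0.235, limma). EPCAM and CDH1 were dim, with mean levels of 5.13 and 4.93, so their fold changes say little. The summed epithelial intensity is mostly that of the 3 keratins that passed. Their part in the GFRA1 difference between Cr and control lines was not tested.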

How the data were processed

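Each of 9 BEAS-2B lines and their parental cells had 1 array, 10 in all. The deposited values are intensities from the RMA16 algorithm, run by the authors in GeneSpring, which corrects background, normalizes by quantiles and summarizes the probes of each transcript cluster. They are on a linear scale, and the baseline transformation named in the paper's methods is not in them. Their log2 was taken. Precision is limited by the number of arrays. Of 28869 rows, 19310 had 1 gene symbol in the annotation used, 1752 several and 7807 none here. List genes without a row of their own were not analysed here.

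A mean per group was fitted over all rows with limma 3.58.1 in R 4.3.3 (6 residual and 1.96 prior degrees of freedom). Folds are differences between log2 means, taken back to the linear scale. Promoter sequences and gene positions came from RefSeq tables on GRCh38.p14. Tables and figures were made in Python 3.11.15 with pandas 2.3.3 and matplotlib 3.10.9. Members and lists were chosen with earlier results of these data known. The genes named were all members and the rest of their families, of each other list up to 4 genes that passed with the largest absolute log2 fold change, and the 3 genes most like a member.

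The steps were tested on simulated data for the Cr lines against control lines over 28869 rows: 46 of 67 rows changed 1.5-fold, 61 of 67 changed 2-fold and 66 of 66 changed 5-fold were called, and 8 of 181 calls were false. The simulated spread was independent between rows and few rows were changed. Shifts shared by many rows, as around NCAM1, were thus not in it, and error rates in the real data can differ. Alternatives were the methods' t-test, limma with a trend and robust moderation, only the groups compared, the dimmest 25% of rows left out, quantiles again, centring on array medians, 16 subtracted before log2, the mean of all rows of a gene, the line number as a replicate block, and each line left out.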

Additional observations from a re-analysis of the deposited data

Results flagged for a closer look

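NCAM1 in Cr_small line 1, at a log2 intensity of 5.71, lay far from the other 5 Cr lines, with a gap to the nearest of them that was 0.778 of the whole range (critical ratio 0.625 for 6 lines). This was the only such case among 27 genes examined in the 6 Cr lines, and chance gives about 1 in 20. Without this line the NCAM1 log2 fold change in the Cr lines was 0.16, and it did not pass the test (adjusted p = 0.0513, limma).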

How the results depend on the processing

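GFRA1 passed in the Cr lines under every alternative run, and no other member row passed under an adjusted p. Of the 7 member rows, the methods' t-test without adjustment called 2 in the Cr lines (23.0% of all rows) and 2 in the Cr_large lines (16.7% of all rows), and after Benjamini-Hochberg it called 0 in the Cr_small and 0 in the Cr_large lines. Leaving out 1 line gave 0 to 1 member calls in the Cr_large lines, 0 without Cr_large line 2. Of the list genes, the t-test called 6 higher after adjustment and 16 of 81 without (15.4% of all named genes), where the fit described called 10. Leaving out 1 line gave 9 to 23 calls, 4 to 11 of them higher and 5 to 12 lower, with 4 higher and 5 lower without control line 3, 5 higher without control line 2 and 5 lower without control line 1. Of the 16 named list genes, 6 kept their call in every alternative and 10 lost it in at least 1. With the line number as a replicate block, 1 member row passed (GFRA1, adjusted p = 0.0151, limma) and 17 list genes did, with FYN, SIX4 and BDNF losing their calls. The residuals of same-numbered lines correlated from -0.145 to 0.0984 over 9 pairs, so the numbers were not taken to pair the lines. Signs turned only in values that passed no test. The RET/KIF5B row in the Cr_small lines was at -0.0063 without control line 2 (range over lines left out -0.0063 to 0.093), and ARTN in the Cr_large lines at 0.016 without Cr_large line 1 (range -0.081 to 0.016). PSPN in the Cr lines was at -0.034 with centring, -0.025 with quantiles again, and between -0.058 and 0.045 with 1 line left out. With 16 subtracted, the control lines differed from the parental array by -1.13 for NCAM1 (main value -0.70), -0.71 for GFRA3 and -0.62 for GFRA2. The precision of dim rows is limited by signal over background.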
